A study of Mus musculus with 2 samples.

Results

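Growth arrest genes were followed in cultured mouse mast cells between day 4 and day 20. The 9 genes described here belong to 4 families whose products hold back cell division: Reprimo (Rprm), the Gadd45 family (Gadd45a, Gadd45b, Gadd45g), Btg1 and Btg2, and the Cdkn genes Cdkn1a, Cdkn1b and Cdkn2c, which encode inhibitors of cyclin-dependent kinases. They were found by accession, gene symbol or described name among the probes of the array and are 9 of 18078 genes tested. They were selected on a reading of their day 20 over day 4 ratios on both arrays, so those ratios are given as a description, with no p-value, and nothing is inferred from how many of them pass a threshold. The study hybridised RNA of day 4 and day 20 together on each of 2 two-colour Agilent arrays, and its stated purpose was to look for genes that mark mucosal mast cells, the mast cells of the gut lining. All cultures received IL-3, IL-9, SCF and TGF-β1, a cytokine mixture used to grow mast cells of the mucosal kind. Array 1 carried day 4 RNA in Cy3 and day 20 RNA in Cy5, and array 2 carried the dyes the other way round. Every RNA was a pool of 3 samples, array 2 used pools of another origin, and the labels name neither the strain nor the cells that the cultures were started from. There are therefore 2 arrays per comparison, and their number limits the precision of every value below.

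Cells leave the division cycle when brakes on the cyclin-dependent kinases outweigh the cyclins that drive them. Cdkn1a (p21) and Cdkn1b (p27) bind cyclin and kinase complexes of several kinds, whereas Cdkn2c (p18) binds the kinases that partner D-type cyclins. Gadd45 proteins are small stress-induced proteins that bind PCNA, the p21 protein and the kinase MAP3K4. BTG proteins tie the CCR4-NOT deadenylase, the enzyme complex that shortens mRNA tails, to its targets, and BTG genes are often high in resting cells. Reprimo was described as a p53-induced protein that arrests cells before mitosis, and Cdkn1a, Btg2 and Gadd45a are also long-known p53 targets. Mature mast cells divide slowly and live long, while their bone marrow precursors divide fast.

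Promoter sequences are shown for the genes that bear the contrast between strongly and weakly shifted relatives: Rprm, Btg1 and Gadd45g, which were at least 2-fold higher on both arrays, Btg2 and Gadd45a, their relatives with small ratios, and Cdkn1a, the member nearest to no difference. Each run is the 250 bases before the annotated start, from RefSeq on GRCm38.p6, written in the direction of transcription. The windows are chr2:54085553-54085802 on the minus strand for Rprm, chr10:96616751-96617000 on the plus strand for Btg1, chr13:51846425-51846674 on the plus strand for Gadd45g, chr1:134079156-134079405 on the minus strand for Btg2, chr6:67037408-67037657 on the minus strand for Gadd45a and chr17:29090729-29090978 on the plus strand for the first of 2 annotated starts of Cdkn1a. Capitals mark matches on either strand to the motifs named after the sequences.
Rprm: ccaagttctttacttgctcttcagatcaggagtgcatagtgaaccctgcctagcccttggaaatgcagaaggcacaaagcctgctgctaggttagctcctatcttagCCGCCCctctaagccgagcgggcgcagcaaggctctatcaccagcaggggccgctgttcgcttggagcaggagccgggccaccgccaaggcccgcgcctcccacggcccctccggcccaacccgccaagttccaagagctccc
Btg1: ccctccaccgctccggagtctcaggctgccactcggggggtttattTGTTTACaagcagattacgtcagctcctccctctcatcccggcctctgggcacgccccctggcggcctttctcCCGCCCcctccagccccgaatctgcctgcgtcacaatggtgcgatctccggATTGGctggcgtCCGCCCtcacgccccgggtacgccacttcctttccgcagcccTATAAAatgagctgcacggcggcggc
Gadd45g: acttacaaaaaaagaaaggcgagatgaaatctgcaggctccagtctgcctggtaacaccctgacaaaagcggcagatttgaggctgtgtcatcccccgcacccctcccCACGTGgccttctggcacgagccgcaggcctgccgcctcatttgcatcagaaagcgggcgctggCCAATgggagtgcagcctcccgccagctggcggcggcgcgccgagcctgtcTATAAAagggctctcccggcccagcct
Btg2: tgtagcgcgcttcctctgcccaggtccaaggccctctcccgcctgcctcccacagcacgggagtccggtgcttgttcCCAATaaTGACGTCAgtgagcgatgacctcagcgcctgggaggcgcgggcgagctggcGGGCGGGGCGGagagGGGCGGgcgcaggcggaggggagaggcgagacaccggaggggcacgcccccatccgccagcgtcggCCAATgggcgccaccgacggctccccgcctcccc
Gadd45a: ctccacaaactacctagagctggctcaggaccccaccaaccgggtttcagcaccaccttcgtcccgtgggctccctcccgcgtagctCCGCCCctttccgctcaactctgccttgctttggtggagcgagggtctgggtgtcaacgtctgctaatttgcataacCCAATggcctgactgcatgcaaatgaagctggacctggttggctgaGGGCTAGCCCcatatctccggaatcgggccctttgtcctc
Cdkn1a: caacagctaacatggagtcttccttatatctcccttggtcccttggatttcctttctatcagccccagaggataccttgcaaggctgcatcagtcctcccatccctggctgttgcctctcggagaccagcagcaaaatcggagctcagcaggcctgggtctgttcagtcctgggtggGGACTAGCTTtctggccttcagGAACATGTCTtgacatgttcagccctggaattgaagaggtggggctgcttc

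The 9 genes had 11 such windows, since Cdkn1a and Cdkn2c have 2 starts each. A gene counted once if any of its windows held a motif, whereas the shares of all windows count each window. The search covered 10 motifs on both strands, and overlapping matches of the same motif were each counted. The TATA box (TATAAA) was in the windows of 3 genes, Gadd45b, Gadd45g and Btg1, and in 12.4% of the 32851 mouse windows of the same length. It began 26 bases before the start in Btg1, 27 in Gadd45g and 46 in Gadd45b. A CCAAT box (CCAAT) was held by 6 of 9 genes against 33.8% of all windows. It lay at 80 bases in Btg1, 78 in Gadd45g and 86 in Gadd45a. Gadd45b held it at 139 and 100, Btg2 at 173 and 34, and Cdkn1b at 161 and 35. Rprm held neither a TATA box nor a CCAAT box. The GC box (GGGCGG) was found in 8 of 9 genes, Rprm with a single one at 143 bases, and in 32.7% of all windows. Gadd45g was the gene without it in any window. In Cdkn1a it lay only before the second start, so the window of Cdkn1a printed above holds none. The E-box (CACGTG) was in Gadd45b and Gadd45g (6.02% of all windows), the cAMP response element (TGACGTCA) in Btg2 alone (1.55%) and the FoxO site (GTAAACA) in Btg1 alone (3.17%). Matches to the p53 half-site were in Cdkn1a, at 73 and 51 bases, and in Gadd45a, at 40 bases, against 7.13% of all windows. The windows of these 9 genes held no AP-1 site (TGANTCA, 6.75% of all), no STAT site (TTCNNNGAA, 7.02%) and no CArG box (1.47%). A match is a run of letters and was not tested for binding. The windows of Rprm and Btg1 were 62.4% and 65.2% G or C, that of Gadd45g 62.0%, and the median of all windows 52.4%.

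A log2 ratio here is day 20 over day 4, so that 1 means a doubling. Over all 18078 genes its median was -0.01 and the range from the 5th to the 95th percentile ran from -0.59 to 0.50. Across genes, which are not independent replicates, the arrays' ratios had a Pearson correlation of 0.77 and a Spearman correlation of 0.47, and the pooled SD between the arrays was 0.19. In limma's fit across all genes, with Benjamini-Hochberg adjustment and a threshold of 0.05, 3100 genes (17.1%) passed, of which 1418 (7.84%) were higher and 1682 (9.3%) lower at day 20. With median centring in place of loess these counts were 559 and 784, and with the scanner software's own ratios 612 and 630. Between 80.0% and 96.2% of gene spots were well above background in each of the 4 channels. All 7 tested markers of the labelled cell type rose, such as Fcer1a of the IgE receptor (2.11 ± 0.01, SD, n = 2) and Mcpt2 (2.09 ± 0.48). Kit and Cpa3 had no unmarked spot on both arrays, and Gata2 was not found on the array. The tested markers of other cells, given at the end of these results, were also well above background at day 4 on both arrays.

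Of the 9 growth arrest genes, 6 passed the threshold as higher, 0 as lower, and 3 did not pass, where the share of all genes passing as higher was 7.84%. Their choice used this contrast, so nothing is read from the count. In other processings the count of higher genes ranged from 4 with median centring to 7 with plain background subtraction. With the scanner software's ratios it was 5. Rprm, Btg1 and Gadd45g were at least 2-fold higher on both arrays, as were 1.06% of all genes, and 0 were at least 2-fold lower (0.819% of all). In 8 of 9 genes day 20 lay above day 4 on both arrays (29% of all genes) and in 0 below it on both (30.4%), and only Cdkn1a had opposite signs. The median of the 9 mean log2 ratios was 0.53. Each gene was read by 1 probe, all 9 were well above background in all 4 channels, and no spot of theirs was saturated or marked as an outlier. In bulk RNA a change in the share of cells that express a gene and a change of its RNA per cell cannot be told apart.

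**Figure D1:**
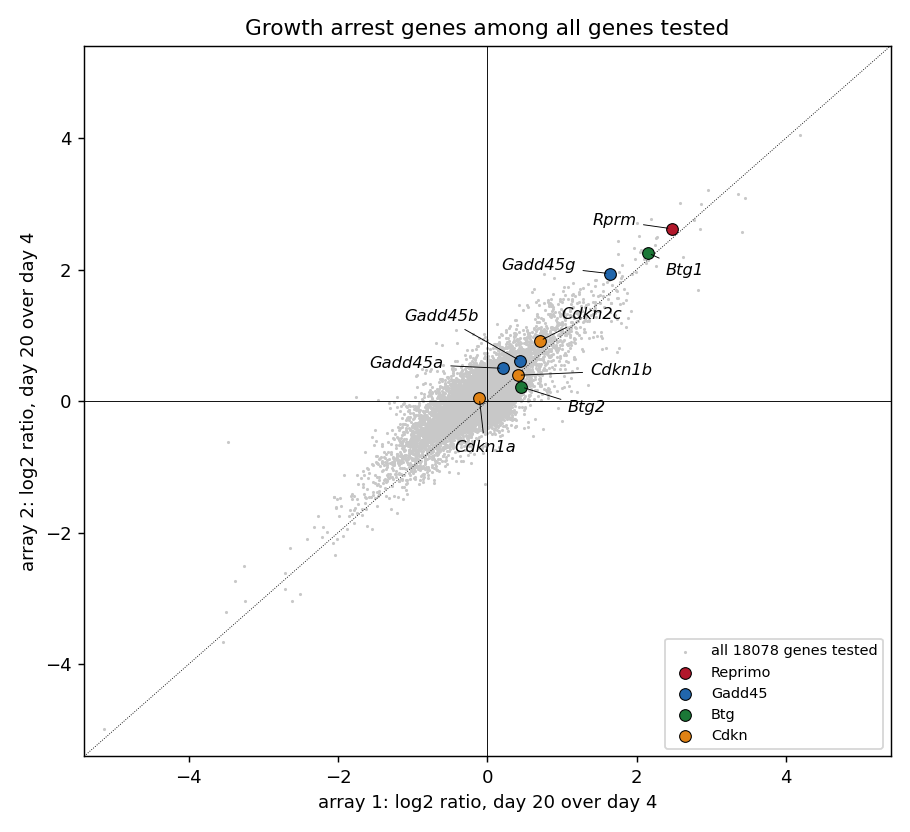
Log2 ratio of day 20 over day 4 on array 1 (horizontal) and array 2 (vertical) for all 18078 genes tested (grey) and the 9 growth arrest genes (coloured by family), with the dotted line marking equal ratios. Rprm, Btg1 and Gadd45g lie in the sparse upper right beyond 1.6 on both axes, Cdkn2c lies at 0.70 and 0.92, and the other 5 lie inside or at the edge of the cloud of all genes.

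Rprm, the single Reprimo gene, had the largest ratio of the 9. Its normalised level, a log2 intensity after loess and between-array scaling, was 9.21 at day 4 and 11.68 at day 20 on array 1, and 9.50 at day 4 and 12.12 at day 20 on array 2. Both day 20 values stood well above both day 4 values, and the groups did not overlap. The log2 ratios were 2.47 and 2.62, with a mean of 2.54 ± 0.11 (SD, n = 2) or 5.83-fold. Only 9 of the 18078 genes had a larger measured mean ratio, although saturated spots, such as those of the tryptase gene Tpsab1 (2.26) at day 20, give only a lower bound and could rank higher. In raw background-subtracted intensity the spot went from 780 to 3412 on array 1 and from 534 to 3982 on array 2, so both dyes read the day 20 RNA as brighter. Of 11 other ways of processing the arrays, only another background correction, median centring or the scanner software's ratios could move this mean. The series matrix repeats the scanner software's ratios. The rest cannot change the ratio of a gene with 1 probe and no marked spot, which holds for all 9 genes. The mean ratio of Rprm stayed between 2.44 and 2.68. The files give this probe a clone name in place of a symbol, and its accession named it as Rprm.

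The Gadd45 family was split. Gadd45g, described as a cytokine-responsive member in blood cells, stood at 9.16 at day 4 and 10.80 at day 20 on array 1, and at 9.40 and 11.34 on array 2. The days did not overlap. Its log2 ratios of 1.64 and 1.94 gave a mean of 1.79 ± 0.21 (3.45-fold), the rank of 40 from the top among all genes. Gadd45b, a member induced by TGF-β in other cells, was 7.84 and 8.28 on array 1 and 8.04 and 8.65 on array 2 at day 4 and day 20. Day 20 was the higher on each array, the day 4 and day 20 values did not overlap, and the gap of the days was smaller than in Gadd45g. The ratios were 0.44 and 0.61, with a mean of 0.53 ± 0.12 (1.44-fold). The mean lay between 0.53 and 0.65 in the other processings.

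Gadd45a, the DNA damage inducible founder of the family, had levels of 8.54 at day 4 and 8.75 at day 20 on array 1, and 7.55 and 8.05 on array 2. Array 1 lay above array 2 on both days by more than the days differed, so that the day 4 and day 20 values overlapped. The ratios were 0.21 and 0.50, with a mean of 0.35 ± 0.20 (1.28-fold), and the mean lay between 0.34 and 0.50 in the other processings. The ratio ranges of Gadd45a and Gadd45b overlapped, while both ratios of Gadd45g were above those of its relatives.

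The BTG pair was split as well. Btg1, named for a B-cell translocation and known as a marker of resting lymphocytes, was at 9.84 at day 4 and 11.99 at day 20 on array 1, and at 10.32 and 12.57 on array 2. The 2 days were far apart and did not overlap. The ratios of 2.15 and 2.25 gave a mean of 2.20 ± 0.07 (4.60-fold) and rank 20 among all genes. The raw spot went from 1207 to 4133 and from 971 to 5310 in net intensity on the 2 arrays. Its probe is named through its described name in the files, and under the other processings the mean stayed between 2.06 and 2.30.

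Btg2, the p53-inducible relative of Btg1, was at 6.81 and 7.26 on array 1 and at 6.78 and 6.99 on array 2 at day 4 and day 20. The days did not overlap, by a narrow margin. The ratios were 0.45 and 0.22, with a mean of 0.33 ± 0.17 (1.26-fold). The spot was dim. Its net intensities were 135 at day 4 and 127 at day 20 on array 1, and 42.9 and 120 on array 2, while 95% of negative control spots lay below 69.4 and 92.6 in the Cy3 channels of arrays 1 and 2 and below 16.5 and 15.8 in Cy5. With the scanner software's ratios Btg2 stood at 0.62. With plain background subtraction it stood at 0.42 and with a normexp offset of 0 at 0.55.

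**Figure D2:**
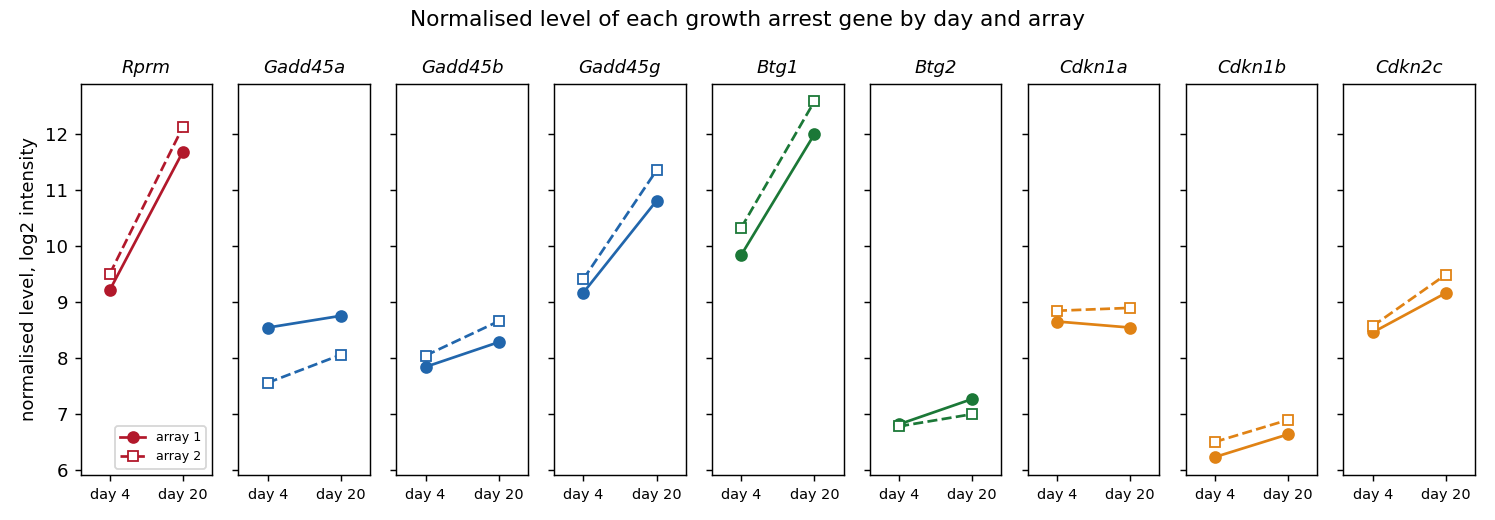
Normalised level (log2 intensity) of each growth arrest gene at day 4 and day 20, with a line per array (filled circles array 1, open squares array 2). Rprm, Gadd45g and Btg1 climb steeply on both arrays, Cdkn2c less so, Cdkn1a is nearly level, and the Gadd45a lines are set apart by array.

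Of Cdkn1a, Cdkn1b and Cdkn2c, the last (p18) had the largest ratio as reported. With the scanner software's ratios Cdkn1b exceeded it, at 0.99 against 0.92. Cdkn2c was at 8.45 at day 4 and 9.15 at day 20 on array 1, and at 8.56 and 9.48 on array 2. Both day 20 values were above both day 4 values. The ratios were 0.70 and 0.92, with a mean of 0.81 ± 0.15 (1.75-fold), rank 417 from the top, and the mean lay between 0.80 and 0.92 in the other processings.

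Cdkn1b (p27) was at 6.23 and 6.63 on array 1 and at 6.50 and 6.89 on array 2 at day 4 and day 20. The days did not overlap, and the arrays' ratios of 0.41 and 0.39 were the closest pair among the 9 genes. The mean was 0.40 ± 0.01 (1.32-fold). The spot was dim. The Cy3 net intensity was 79.6 on array 1 and 114 on array 2, close to the level that bounds 95% of negative controls, and the Cy5 values were 57.7 and 29.1. With the scanner software's ratios the mean was 0.99 and with a normexp offset of 0 it was 0.88.

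Cdkn1a (p21), the best known p53 target of the family, was at 8.65 at day 4 and 8.54 at day 20 on array 1, and at 8.84 and 8.89 on array 2. The days overlapped and the arrays pointed in opposite directions. The ratios were -0.11 and 0.05, with a mean of -0.03 ± 0.11, and the mean stayed between -0.03 and -0.02 in the other processings. Its spot was moderately bright, with net intensities of 520 and 379 on array 1 and 301 and 424 on array 2.

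The 9 genes thus spread over a wide range of ratios. In the order Rprm, Btg1, Gadd45g, Cdkn2c, each gene's lower array ratio was above the next gene's higher one. Below Cdkn2c, the ratios of Gadd45b, Cdkn1b, Gadd45a and Btg2 all fell between 0.21 and 0.61, and neighbours in that order differed by no more than the pooled SD of 0.19. The means changed little with the processing for the bright spots and most for Cdkn1b and Btg2. The order changed too: with the scanner software's ratios Cdkn1b stood above Cdkn2c, at 0.99 against 0.92.

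**Figure D3:**
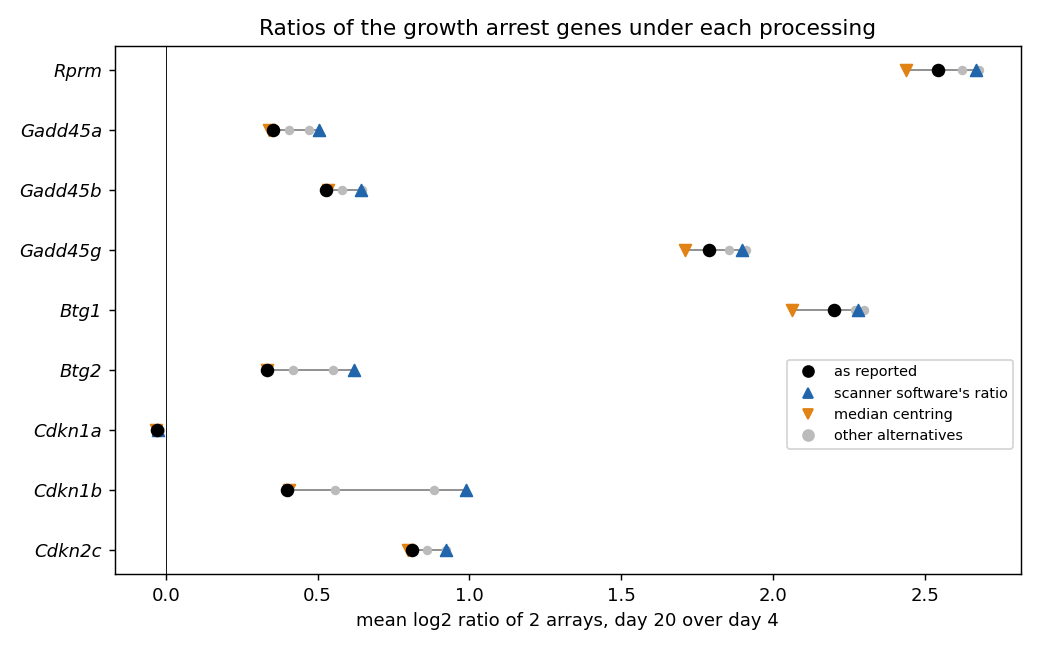
Mean log2 ratio of the 2 arrays, day 20 over day 4, for each growth arrest gene as reported (black), with the scanner software's ratio (blue triangles), with median centring (orange triangles) and with the other processings (grey). Cdkn1b spans 0.40 to 0.99 and Btg2 0.33 to 0.62, whereas Cdkn1a and Cdkn2c keep narrow ranges.

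The genes whose pair of array ratios lay nearest to the leading member of each family were found by the Euclidean distance over the 2 arrays. Nearest to Rprm were the heparan sulphate 3-O-sulphotransferase Hs3st1 (2.27 and 2.49, distance 0.236), the immediate early gene Ier2 (2.25 and 2.47, distance 0.259) and the membrane protein gene Itm2c (2.20 and 2.77, distance 0.311). Nearest to Btg1 were Ctla2a, an inhibitor of cysteine cathepsins, at a distance of 0.0546, the peptide gene Nmb at 0.0624 and the serine protease Htra1 at 0.100. For Gadd45g they were cathepsin E, Ctse, at 0.0830, the integrin chain Itga2b at 0.0932 and the arginine deiminase Padi2 at 0.138. For Cdkn2c they were the apoptosis inhibitor Birc3 at 0.0400, the protease Hgfac at 0.0471 and the transcription factor Stat2 at 0.0499. Over 2 arrays such nearness is a description only, and it is closer where genes are more crowded.

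Few relatives of the growth arrest genes outside the 9 were measured. Of the other CDK inhibitors, 3 of 4 on the array were tested, and 2 were higher and 0 lower (0 also before adjustment). Over all genes 7.84% passed as higher and 9.3% as lower. The list's median log2 ratio of 0.36 (-0.01 for all genes) is the ratio of Cdkn2a, which is also 1 of the 2 calls. Cdkn2a passed the filter on dim spots only through day 20, so nothing is read from this count or median. Cdkn2d (p19), which like Cdkn2c binds the kinases of D-type cyclins, rose by 0.70 ± 0.37 (limma adjusted p = 0.00188), a call lost with median centring and with the scanner software's ratios. Cdkn2a passed as well (limma adjusted p = 0.0401). Its day 4 signal was not well above background on either array and its day 20 signal was. Cdkn2a thus entered the test only through the day on which it was higher, so its call is a description and no support for a rise. Day 20 was 1.29-fold higher as measured against the dim day 4 spots. The size depended on the background correction: the mean log2 ratio was 0.36 ± 0.09 as reported, 0.61 with plain background subtraction, 1.41 with a normexp offset of 0 and 1.83 with the scanner software's ratios. The call was lost with median centring and with limma's prior degrees of freedom halved. Cdkn2b (p15), a TGF-β target in epithelial cells, stood at -0.10 ± 0.08 (limma adjusted p = 0.822). Of the other BTG and Tob genes, Tob1 at 0.12 ± 0.02 (limma adjusted p = 0.711) and Tob2 at 0.02 ± 0.08 (limma adjusted p = 0.997) did not pass, and Tob1, whose day 4 signal was well above background on 1 array, stood at 0.56 with a normexp offset of 0 and at 0.72 with the scanner software's ratios, without passing. Btg3 passed as lower with -0.74 on array 1 and -0.13 on array 2 (limma adjusted p = 0.0479), and in 7 of 11 other processings it did not, among them the scanner software's ratios with a mean of -0.71.

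Genes for proteins that Gadd45 and BTG members bind, and for partners of those proteins, were few. Their passing share can hardly be compared with the 17.1% of all genes that passed in either direction. Among the GADD45 partner kinases and PCNA, 0 of 8 tested genes passed in limma's fit in either direction, and the median was -0.02. Before adjustment 0 were higher and 1 was lower at the same threshold, Pcna at -0.26 ± 0.21 (limma adjusted p = 0.187). Map3k4, the kinase that Gadd45 proteins activate, stood at 0.01 ± 0.07. Of 7 tested genes of the CCR4-NOT deadenylase and its partners, 1 was higher and 0 lower (1 lower before adjustment), with a median of 0.01. That gene was Pan3, a subunit of the other mRNA deadenylase, at 0.67 ± 0.05 (limma adjusted p = 0.000663), and the scanner software's ratios did not give this call. The BTG-binding nucleases Cnot7 and Cnot8 stood at -0.08 ± 0.06 and 0.03 ± 0.18.

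Of 21 tested genes of the p53 list, 4 were higher and 2 lower, with a median of 0.01. The shares of all genes were 7.84% higher and 9.3% lower. Trp53inp1, a p53-induced nuclear protein, rose by 1.51 ± 0.15 (limma adjusted p = 8.76e-07) and Bbc3, the death gene Puma, by 1.41 ± 0.09 (limma adjusted p = 1.40e-06). Ddit4, an inhibitor of the growth kinase mTOR, rose by 1.01 ± 0.15 and the DNA repair gene Xpc by 0.88 ± 0.14. Trp53 itself was lower at -0.44 ± 0.00 and the apoptosis gene Siva1 at -0.62 ± 0.37, and neither passed with median centring or with the scanner software's ratios. Mdm2, the p53 target that restrains p53, stood at 0.04 ± 0.03 (limma adjusted p = 0.986).

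The list of FoxO, quiescence and growth arrest specific genes had 10 of 19 tested genes higher and 2 lower. Over all genes the shares were 7.84% and 9.3%. The list's median was 0.47, or 0.22 on array 1 and 0.67 on array 2. With median centring 6 were higher. Ccng2, an unusual cyclin high in resting cells, rose by 1.16 ± 0.06 (limma adjusted p = 7.53e-06). Klf2, a quiescence factor of lymphocytes, rose by 1.15 ± 0.42, Txnip, which restrains glucose uptake, by 1.14 ± 0.44, and Tsc22d3, the glucocorticoid-induced zipper protein, by 1.08 ± 0.35. Klf2 did not pass with median centring. Gas5, a growth arrest specific non-coding RNA, was lower at -0.95 ± 0.05, against the direction of the list's name, and the phosphatase Dusp1 was lower at -0.46 ± 0.16. Dusp1 lost its call with a normexp offset of 0, with median centring and with the scanner software's ratios, at means of -0.49, -0.49 and -0.50.

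Cell division genes were also measured, and 9.3% of all genes passed as lower. Of 18 tested cell division markers 0 were higher, also before adjustment, and 10 lower in limma's fit. Their median was -0.42, or -0.56 on array 1 and -0.40 on array 2. Top2a, Bub1b, Kif2c, Ttk and Hmmr, which did not pass, lay above 0 on array 2, by 0.14 or less. Cenpa, the centromeric histone, fell by 0.86 ± 0.14 on the log2 scale (limma adjusted p = 0.000102), and the replication helicase genes Mcm2 and Mcm4 and the mitotic kinase Plk1 were at -0.80 ± 0.18, -0.79 ± 0.02 and -0.72 ± 0.16. With the scanner software's ratios only 1 of the list passed and with a normexp offset of 0 there were 6, although the scanner software's means of Mcm2, Mcm4 and Plk1 were -0.84, -0.79 and -0.75. Of 20 tested cyclins, CDKs and their regulators 1 was higher and 5 lower, with a median of -0.21. Ccne1 (cyclin E) was at -0.86 ± 0.17, the kinase subunit Cks1b at -0.80 ± 0.16, and Cdc25c and Ccnb1 (cyclin B) of mitotic entry each at -0.66, with SDs of 0.03 and 0.15. Ccnd2 (cyclin D2) passed as higher at 0.39 ± 0.23 (limma adjusted p = 0.0389), which 7 of 11 other processings did not keep. With the scanner software's ratios 2 of this list were lower.

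Of 7 tested Rb and E2F genes 2 were higher and 3 lower, with a median of -0.26, where 7.84% and 9.3% of all genes were. The higher ones were the pocket proteins Rb1 (0.54 ± 0.10) and Rbl2 (0.48 ± 0.02), which restrain E2F. Rbl2 stood at 0.90 with a normexp offset of 0 and at 0.9998 by the scanner software. The lower ones were the E2F partner Tfdp1 (-0.62 ± 0.27), the division cycle factor Mybl2 (-0.57 ± 0.11) and the repressor E2f6 (-0.44 ± 0.27). With the scanner software's ratios 1 was higher and 0 lower, and with median centring 0 and 1, and E2f6 passed in 5 of 11 other processings.

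**Figure D4:**
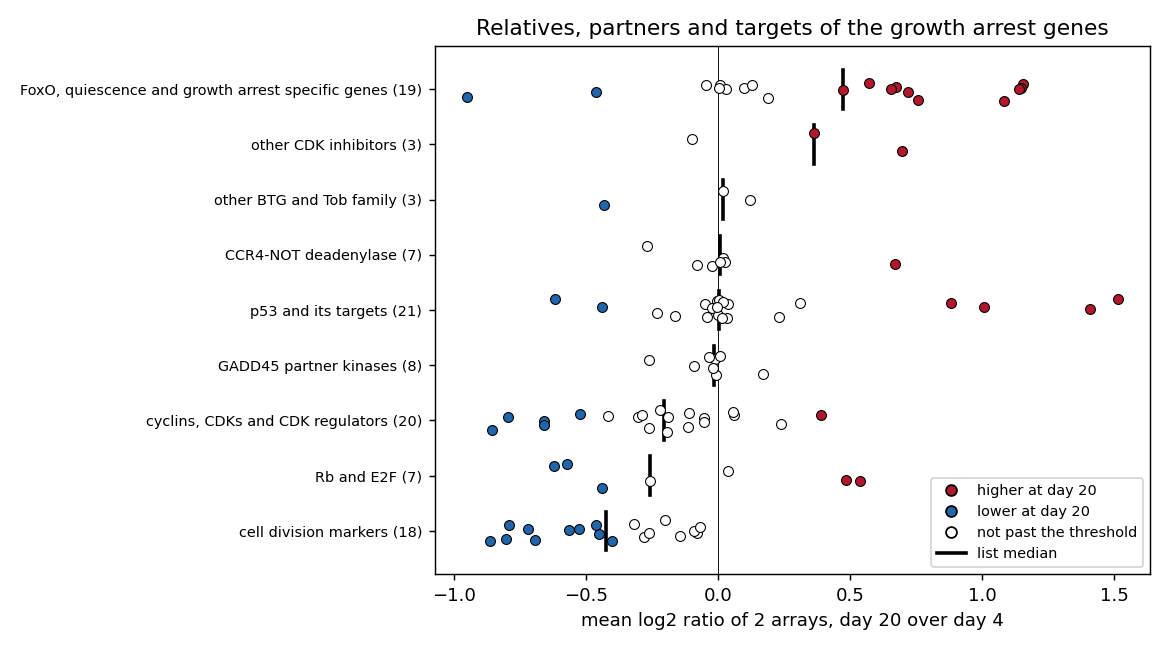
Mean log2 ratio of the 2 arrays, day 20 over day 4, for the tested genes of each list (number in brackets), coloured by whether limma's fit across all genes passed them as higher or lower, with a bar at each list's median. The means of the cell division markers lie wholly below 0 with a median of -0.42, although some of these genes lay above 0 on array 2. FoxO and quiescence genes lean above 0 with a median of 0.47, and GADD45 partner kinases gather around 0.

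Markers of other cells also differed between the days, where 9.3% of all genes passed as lower and 7.84% as higher. Neutrophil genes (7 of 9 tested lower, median -0.96), monocyte and macrophage genes (7 of 7 lower, -0.59), erythroid genes (4 of 5 lower, -1.20) and basophil and eosinophil genes (3 of 3 lower, -0.45) were lower at day 20, while of 4 stromal genes 2 were higher and 0 lower (0.29). The mean log2 level of the neutrophil markers was 9.16 and 9.12 at day 4 and 7.32 and 7.56 at day 20, and that of the monocyte and macrophage markers 8.82 and 8.81 against 7.25 and 7.29. For the erythroid markers it was 7.88 and 7.78 against 6.73 and 6.64, for basophil and eosinophil markers 10.04 and 10.05 against 8.82 and 8.84, and for stromal markers 9.19 and 9.06 against 9.56 and 9.20. Mast cell markers went from 11.99 and 12.23 to 13.92 and 13.98, with the spots of Cma1 and Tpsab1 saturated at day 20 on both arrays and that of Mcpt1 on 1. All but Camp of the neutrophil markers and 3 of 5 erythroid markers were still well above background on both arrays at day 20. Camp and the erythroid genes Car1 and Hemgn thus entered the test only through day 4, on which they were higher. Their calls are a description and no support for a fall. The erythroid median of -1.20 is the ratio of Car1. The part of these marker differences in the ratios of the growth arrest genes was not tested.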

How the data were processed

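The 9 genes, the gene lists and the tests were chosen with earlier results of these data known. The authors scanned both arrays with Agilent Feature Extraction 7.5, per the submitters' processing notes. The deposited scanner files give mean signal and local background as raw intensity, and log10 ratios of Cy5 over Cy3 from the software's own processing, whose signs oppose each other between the arrays. On array 1 the background medians of 313 Cy3 and 324 Cy5 spots had become month names and were read back. The deposited series matrix matches the log10 ratios at all 22393 spots per array (tolerance 1e-06), with column medians of 0.000760 and 0.

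Log2 ratios were computed from the intensities the authors deposited, in limma 3.58.1 under R 4.3.3 (tables read by data.table, version 1.17.8): normexp background correction with offset 50, loess within arrays with control and marked spots at weight 0, spots marked as non-uniform or population outliers left out, and array 2 turned to day 20 over day 4. Levels add between-array scaling (Aquantile). The brightest probe per gene was used, and 18078 of 20433 gene names were tested, those well above background in both day 4 or both day 20 channels. Named genes were the 9 members, in each list up to 4 largest rises and falls past the threshold, all relatives in the other CDK inhibitor and BTG and Tob lists, and the 3 nearest genes of the leading member of each family; Mdm2, Map3k4, Pcna, Cnot7 and Cnot8 were added after their values were seen. With 2 arrays the fit has 1 residual degree of freedom, and its prior contributes 12.2. The fit was tested on simulated data with changes of 1 and 2 log2 units, and it recovered the changed genes. Smaller changes were not simulated. In most draws the share of false calls exceeded the nominal level. The limit that stops the script was loosened after stricter limits had failed. An adjusted p near 0.05 is therefore less certain than it reads. Halving the prior degrees of freedom was tried after seeing the data and was not itself simulated.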

Additional observations from a re-analysis of the deposited data

How the results depend on the processing

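Under the 11 other processings no reported direction of a called gene turned. Changes of the filter or of the prior leave a ratio as it is, so they could not turn a direction. Over all genes 559 were higher and 784 lower with median centring, and 612 and 630 with the scanner software's ratios, which the series matrix repeats. With median centring 6 FoxO list genes were higher and 1 lower, 0 Rb and E2F genes higher and 1 lower, 0 cyclins higher, 0 BTG and Tob genes lower, 0 other CDK inhibitors higher and 0 p53 list genes lower. With the scanner software's ratios and the series matrix 0 CCR4-NOT genes were higher, 1 FoxO list gene lower, 1 Rb and E2F gene higher and 0 lower, 1 cell division marker lower, 0 cyclins higher and 2 lower, 0 BTG and Tob genes lower, 1 other CDK inhibitor higher and 0 p53 list genes lower. With a normexp offset of 0, 1 FoxO list gene was lower, 1 Rb and E2F gene higher, 6 cell division markers lower, 0 cyclins higher, 0 BTG and Tob genes lower and 1 p53 list gene lower. Plain subtraction and the intensity trend each left 0 cyclins higher, keeping marked spots and testing dim probes each left 0 BTG and Tob genes lower, and requiring all 4 channels left 1 other CDK inhibitor higher. Halving the prior degrees of freedom, chosen after seeing the data, gave 0 cyclins higher, 0 BTG and Tob genes lower and 1 other CDK inhibitor higher. The cause of these moves was not tested. For single genes, 64 of the repeats lost a call and 3 gained one. A call lost with the scanner software's ratios counts again for the series matrix, here and in counts out of 11 processings. Leaving out 1 array gives the other array's ratio with no test. The ratio within an array already pairs the days, so the reported fit is the paired one. Several ratios depended on the processing: among the genes named, Cdkn2a (0.36 to 1.83), Tob1 (0.12 to 0.72), Rbl2, Cdkn1b, Btg2, Btg3 and, near 0, Cdkn2b and Tob2 moved by over 1.5 times in at least 1 processing. Calls near the threshold are less certain than they read, since in most simulated draws the share of false calls exceeded the nominal level. The cause of that excess was not tested.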
